A study of Homo sapiens with 2 samples.

Results

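The BCL2 family decides at the mitochondrion whether a cell enters apoptosis, and 10 of its genes were examined here for binding of RUNX2 and MTA1 in breast cancer cells. The genes were grouped by their role: 7 of the 10 encode proteins that promote apoptosis (BAX, BAK1, BID, BAD, BCL2L11, BBC3 and PMAIP1) and 3 encode proteins that block it (BCL2, BCL2L1 and MCL1), among 20037 protein-coding genes in all. A peak was counted at a gene when it lay inside the gene or within 20 kb of it. By this rule 69 of 61700 RUNX2 peaks and 58 of 42683 MTA1 peaks fell at the 10 genes.

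Peaks came from CUT&Tag, in which an antibody tethers a transposase to chromatin so that fragments near the bound protein are tagged and sequenced. Both libraries were made from MDA-MB-231, a triple-negative breast cancer cell line grown without further treatment, with an antibody against RUNX2, a transcription factor of the RUNT family, or against MTA1, a subunit of the NuRD complex, which removes acetyl groups from histones and remodels nucleosomes. The study asked which genes both proteins occupy. There was 1 library for each antibody and no control library was analysed here, so no value below has a replicate, no p-value was computed, and a difference between the lists is a difference between 2 libraries. Only peaks were at hand, so the depth of the libraries is unknown and a gene without a peak may still carry signal below the threshold of its list.

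Apoptosis through the mitochondrion begins when BAX and BAK1, the effectors, form pores in its outer membrane and release cytochrome c. BCL2, BCL2L1 (BCL-XL) and MCL1 hold the effectors and their activators in check, and the BH3-only proteins BID, BAD, BCL2L11 (BIM), BBC3 (PUMA) and PMAIP1 (NOXA) activate the effectors or occupy the inhibitors. BBC3, PMAIP1 and BAX are well-known transcriptional targets of p53, a protein that is mutated in MDA-MB-231 cells.

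The promoters below show how the peaks lay on the gene starts. Each runs 5′ to 3′ along the coding strand from 250 bases before to 50 bases after a start listed in RefSeq (GRCh38.p14), and 15 such windows were found for 9 of the 10 genes; MCL1 had none. In the first 4 peaks of both lists covered the start, and capitals mark bases that lay under a RUNX2 and an MTA1 peak at once.
BAX, chr19:48954625-48954924, plus strand: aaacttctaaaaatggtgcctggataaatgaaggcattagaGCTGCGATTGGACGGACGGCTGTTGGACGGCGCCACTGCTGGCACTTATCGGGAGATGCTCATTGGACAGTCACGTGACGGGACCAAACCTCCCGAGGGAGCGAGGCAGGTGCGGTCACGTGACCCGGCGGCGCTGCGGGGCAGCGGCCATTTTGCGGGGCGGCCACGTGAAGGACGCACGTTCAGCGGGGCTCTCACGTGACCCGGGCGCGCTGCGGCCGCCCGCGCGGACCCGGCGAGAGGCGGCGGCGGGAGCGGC
PMAIP1, chr18:59899746-59900045, plus strand: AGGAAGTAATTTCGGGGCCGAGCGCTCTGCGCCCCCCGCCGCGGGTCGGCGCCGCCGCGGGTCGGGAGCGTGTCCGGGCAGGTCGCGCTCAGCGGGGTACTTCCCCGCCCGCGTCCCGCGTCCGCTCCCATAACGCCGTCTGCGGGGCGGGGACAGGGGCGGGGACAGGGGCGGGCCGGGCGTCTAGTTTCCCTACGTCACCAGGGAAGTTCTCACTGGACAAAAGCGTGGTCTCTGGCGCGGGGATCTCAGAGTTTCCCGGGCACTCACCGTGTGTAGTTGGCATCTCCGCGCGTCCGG
BAK1, chr6:33580227-33580526, minus strand: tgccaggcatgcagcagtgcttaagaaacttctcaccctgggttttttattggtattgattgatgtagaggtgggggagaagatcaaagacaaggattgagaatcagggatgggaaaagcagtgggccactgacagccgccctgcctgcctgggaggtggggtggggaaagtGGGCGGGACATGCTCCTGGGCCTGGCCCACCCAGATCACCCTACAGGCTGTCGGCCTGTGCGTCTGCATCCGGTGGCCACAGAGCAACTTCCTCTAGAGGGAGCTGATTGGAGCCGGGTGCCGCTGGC
BCL2L11, chr2:111120664-111120963, plus strand: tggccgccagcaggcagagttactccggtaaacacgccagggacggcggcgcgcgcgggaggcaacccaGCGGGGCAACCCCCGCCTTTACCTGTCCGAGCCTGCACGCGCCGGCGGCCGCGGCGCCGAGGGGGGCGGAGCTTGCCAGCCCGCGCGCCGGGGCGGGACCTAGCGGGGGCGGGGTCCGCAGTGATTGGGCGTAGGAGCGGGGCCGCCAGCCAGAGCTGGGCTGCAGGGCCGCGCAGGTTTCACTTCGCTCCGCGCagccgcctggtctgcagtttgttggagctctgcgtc

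At BAX 259 of the 300 bases lay under both peaks, and at PMAIP1 all 300 did. At BCL2L11 the shared stretch was 195 bases long, and at BAK1 it was 128 bases long and ended the window. The BAD windows, which are not shown, each had 96 bases under both. None of the following 4 windows had a base under peaks of both lists, nor did those of BID, which are not shown. Capitals mark bases under an MTA1 peak alone at BBC3 and at the upstream start of BCL2L1, and under a RUNX2 peak alone at the downstream start of BCL2L1. The BCL2 window has no capitals because no peak reached it.
BBC3, chr19:47232618-47232917, minus strand: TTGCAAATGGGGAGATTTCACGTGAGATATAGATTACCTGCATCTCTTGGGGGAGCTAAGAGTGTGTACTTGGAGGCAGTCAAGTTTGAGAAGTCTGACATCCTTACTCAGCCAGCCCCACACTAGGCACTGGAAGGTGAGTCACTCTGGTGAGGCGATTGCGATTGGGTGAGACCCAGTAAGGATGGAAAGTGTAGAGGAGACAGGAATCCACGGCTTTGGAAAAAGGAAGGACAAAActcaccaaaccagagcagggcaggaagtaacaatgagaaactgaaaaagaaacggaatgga
BCL2L1 upstream start, chr20:31723914-31724213, minus strand: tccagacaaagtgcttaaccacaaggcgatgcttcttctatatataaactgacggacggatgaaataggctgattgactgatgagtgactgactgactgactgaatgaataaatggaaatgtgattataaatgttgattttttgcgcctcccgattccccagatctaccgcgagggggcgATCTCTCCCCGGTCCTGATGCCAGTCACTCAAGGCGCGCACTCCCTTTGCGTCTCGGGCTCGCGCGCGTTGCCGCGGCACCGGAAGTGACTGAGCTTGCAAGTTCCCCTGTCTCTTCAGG
BCL2L1 downstream start, chr20:31722819-31723118, minus strand: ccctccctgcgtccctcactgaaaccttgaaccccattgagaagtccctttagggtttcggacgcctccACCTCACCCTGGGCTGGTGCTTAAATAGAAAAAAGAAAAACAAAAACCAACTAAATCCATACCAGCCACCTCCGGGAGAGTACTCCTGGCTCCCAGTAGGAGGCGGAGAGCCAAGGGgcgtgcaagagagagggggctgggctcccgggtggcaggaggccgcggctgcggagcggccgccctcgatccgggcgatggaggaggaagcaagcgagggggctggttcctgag
BCL2, chr18:63319720-63320019, minus strand: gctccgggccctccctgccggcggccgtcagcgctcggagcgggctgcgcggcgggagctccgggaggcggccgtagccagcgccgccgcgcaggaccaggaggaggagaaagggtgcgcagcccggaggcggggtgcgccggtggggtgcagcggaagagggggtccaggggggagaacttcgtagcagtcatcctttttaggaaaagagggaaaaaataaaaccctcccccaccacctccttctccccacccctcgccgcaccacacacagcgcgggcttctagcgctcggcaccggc

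All 10 genes held a peak of each list and at least 1 pair of overlapping peaks. Such windows are common in these lists: a RUNX2 peak was found at 84.4% of all protein-coding genes, an MTA1 peak at 79.7% and an overlapping pair at 71.0%. A peak in a window this wide does not set the BCL2 family apart. The share of members was further from that of all genes at the gene start, taken as the 1 kb on either side of it, where 9 of 10 had a RUNX2 peak, against 49.8% of all protein-coding genes, and 10 of 10 an MTA1 peak, against 51.2%. RUNX2 and MTA1 peaks overlapped at the start of 8 of 10 members, against 42.3% of all genes. BBC3 was the member with no RUNX2 peak at its start, and at BID the peaks of the lists lay next to each other without overlap. Among the 15842 genes with a listed start, the share with an overlapping pair there was 45.03%.

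**Figure D1:**
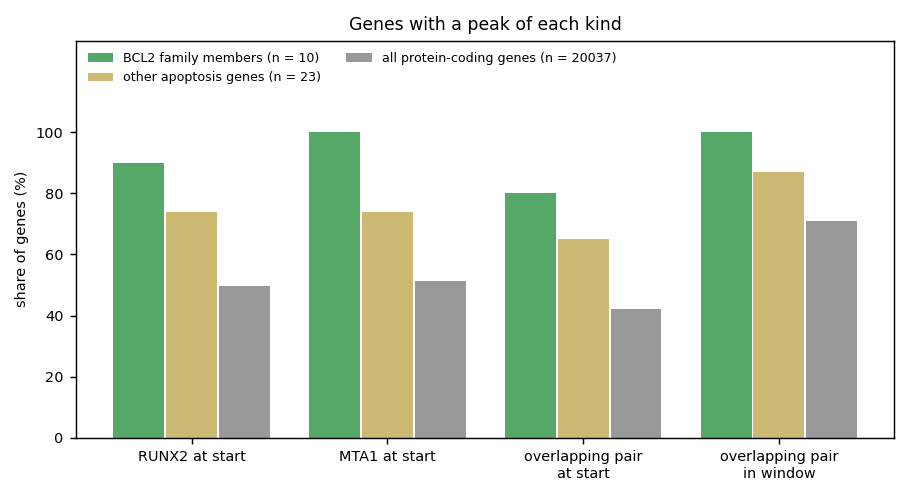
The bars give the share of genes (%) with a RUNX2 peak, an MTA1 peak or an overlapping pair within 1 kb of a start, and with an overlapping pair inside the gene or within 20 kb, for the 10 BCL2 family members, 23 other apoptosis genes and all 20037 protein-coding genes. Each bar is a count of genes in 1 library per antibody and has no error bar; the members stood above all genes by the most at the start, and in the wide window all 10 members had a pair, as did 71.0% of all genes.

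The effectors were occupied at their starts by both proteins. BAX had a RUNX2 peak of 269 bp centred 0.075 kb upstream of its start (chr19:48954666-48954934, score 9.03) and an MTA1 peak of 371 bp centred 0.072 kb upstream (chr19:48954618-48954988, score 17.6). The scale of the score is not stated, so peaks were compared by score rank, the percent of peaks of the same list with a lower score. The BAX start peak ranked at 65.1% in the RUNX2 list and at 84.2% in the MTA1 list, so the same site stood higher among MTA1 peaks. The study used a primer pair for quantitative ChIP at BAX, and its antisense primer, CATCTCCCGATAAGTGCC, matched the opposite strand at bases 82 to 99 of the BAX window (chr19:48954706-48954723), under both peaks. The sense primer had no match in the 300 bases.

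BAX had 5 RUNX2 and 6 MTA1 peaks in its window, and the start pair was the only overlapping pair that lay nearest to BAX itself. The remaining 3 overlapping pairs lay 9.15, 10.4 and 24.2 kb downstream of the BAX start, those at 9.15 and 10.4 kb nearest to FTL, which encodes the ferritin light chain, and that at 24.2 kb nearest to GYS1, which encodes muscle glycogen synthase. The GYS1 pair held the highest-ranked peaks in the BAX window, a RUNX2 peak at 87.6% and an MTA1 peak at 99.3% (chr19:48978833-48979243, score 50.4). The strongest MTA1 signal counted for BAX was therefore at the neighbouring gene, and 4 of the 5 RUNX2 peaks counted for it were nearer to a neighbour.

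BAK1 had 7 RUNX2 and 6 MTA1 peaks, and 6 of each overlapped. Its start peaks were centred 0.01 kb (RUNX2, chr6:33580218-33580354, rank 69.8%) and 0.024 kb (MTA1, chr6:33580200-33580401, rank 86.6%) upstream. BAK1 was the nearest protein-coding gene to all of these peaks. The highest-ranked RUNX2 peak was 8.99 kb downstream of the start, past the end of the gene, at 90.9%, where the MTA1 peak ranked at 72.6%. At 23.2 kb downstream the order turned, with RUNX2 at 64.5% and MTA1 at 92.0%. Both effectors thus had a start pair in which MTA1 ranked higher, and around BAK1 every MTA1 peak was paired with RUNX2.

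**Figure D2:**
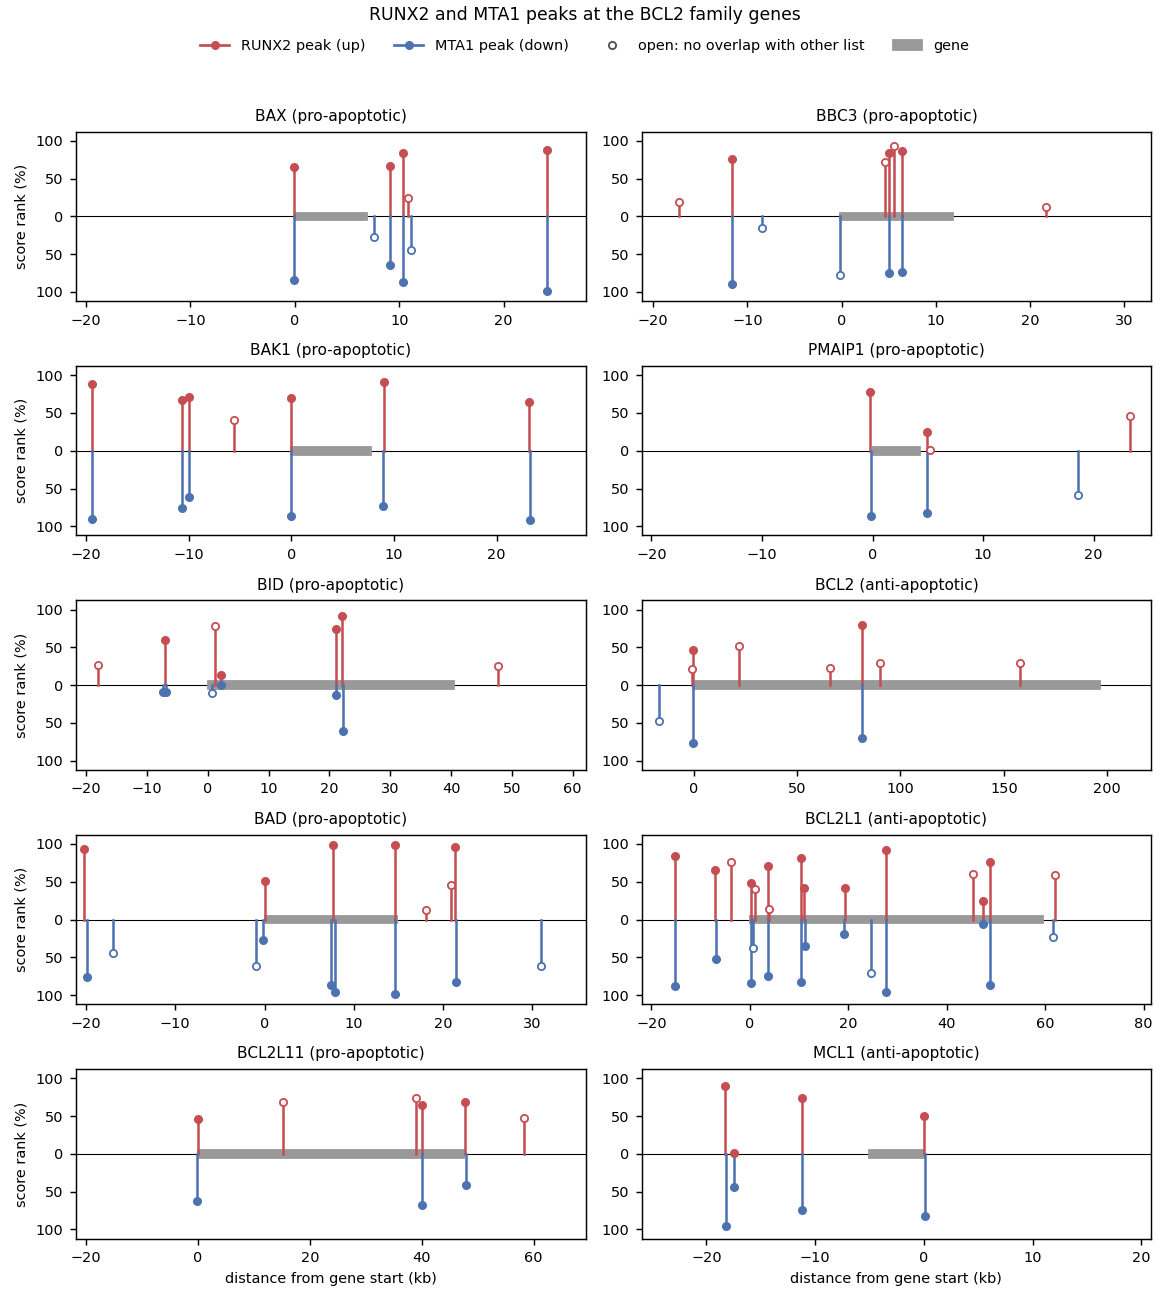
Each panel maps the peaks of 1 gene: the horizontal axis is the distance (kb) of a peak's centre from the most upstream listed start in the direction of transcription, and for MCL1 from its end with the higher coordinate, in the order of coordinates. RUNX2 peaks point up and MTA1 peaks down, their length is the score rank (%) within the list, filled circles overlap a peak of the other list, and the grey bar is the gene; panels differ in scale, from a window of 44.3 kb at PMAIP1 to 237 kb at BCL2.

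Among the BH3-only genes, PMAIP1 had the widest start peaks. The RUNX2 peak was 555 bp long and ranked at 77.5% (chr18:59899503-59900057, score 13.3), and the MTA1 peak was 479 bp long and ranked at 86.7% (chr18:59899604-59900082, score 19.2). Both were the highest-ranked peaks of the PMAIP1 window in their lists, which held for no other member in both lists. A further pair lay 4.9 kb downstream of the start, past the end of the gene, and here the ranks were far apart, at 24.8% for RUNX2 and 82.1% for MTA1.

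BCL2L11, whose product BIM binds the anti-apoptotic proteins, had 6 RUNX2 and 3 MTA1 peaks. Its start pair ranked at 45.9% (RUNX2, chr2:111120733-111120969) and 62.5% (MTA1, chr2:111120681-111120927). All 3 MTA1 peaks overlapped a RUNX2 peak, at the start, 40.1 kb into the gene and just past the gene's end, while 3 RUNX2 peaks had no MTA1 partner. The strongest RUNX2 peak of BCL2L11, 38.9 kb into the gene, was among those without a partner (rank 73.6%), and no other member had a strongest RUNX2 peak of lower rank.

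BBC3, the gene of PUMA, was the only member with an MTA1 peak and no RUNX2 peak at its start. The MTA1 peak (chr19:47232679-47233049, score 14.2, rank 77.9%) was centred 0.197 kb upstream, and the nearest RUNX2 peak was 4.66 kb inside the gene. Starts with MTA1 alone made up 6.91% of all protein-coding genes. RUNX2 instead formed a cluster of 4 peaks between 4.66 and 6.4 kb from the start, inside the gene. They ranked from 71.7% to 93.6%, and the highest of them (chr19:47226973-47227288, score 29.4) had no MTA1 partner, although MTA1 peaks ranking at 73.6% and 75.2% overlapped its neighbours on either side. At 11.7 kb upstream of BBC3 a further pair ranked at 76.6% for RUNX2 and 89.8% for MTA1. Within BBC3 both proteins had peaks, and within 1 kb of its 1 listed start MTA1 alone did. Any start of BBC3 that is not listed was not examined.

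BID, which is cleaved by caspase-8 and links death receptors to the mitochondrion, was the reverse of most members. Its RUNX2 start peak ranked at 78.4% (chr22:17773263-17773726, score 13.7), the highest RUNX2 start rank of the 10 genes, and its MTA1 start peak ranked at 10.49% (chr22:17773809-17773943, score 4.46), the lowest MTA1 start rank. The peaks were separated by 82 bases and did not overlap. BID has 5 listed starts, and peak bases reached the promoter window of only the most downstream of them, of which 10 of 300 bases lay under the MTA1 peak. Elsewhere in the BID window MTA1 peaks were weak as well, since the highest of its 6 ranked at 60.4%, where the RUNX2 peak that overlapped it (chr22:17752384-17752652, 21.5 kb from the start) ranked at 92.0%. In all 5 overlapping pairs at BID the RUNX2 peak had the higher rank, by 12.6 to 60.2 percentage points. These pairs hold 4 RUNX2 peaks, since the peak at chr22:17781456-17781963, nearest to MICAL3, was in more than 1 of them. Upstream peaks of BID lay nearest to MICAL3, and its most distant RUNX2 peak nearest to BCL2L13, itself a gene of the family.

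BAD, whose product binds BCL2 and BCL2L1, held the highest-ranked RUNX2 peaks of all members. The strongest (chr11:64269826-64270260, score 49.2, rank 98.5%) lay 14.6 kb from the start at the far end of the gene and overlapped an MTA1 peak (chr11:64269877-64270364, score 46.6, rank 99.0%). A second RUNX2 peak (chr11:64276664-64277306, score 45.2, rank 97.96%) lay 7.68 kb from the start and overlapped 2 MTA1 peaks, which ranked at 95.7% and 86.0%. This site is also inside GPR137, which overlaps BAD. The start peaks of BAD were weak by comparison. RUNX2 ranked there at 51.1%, the MTA1 peak that overlapped it at 27.5%, and a separate MTA1 peak 0.978 kb upstream at 61.2%, and all 3 were centred just upstream of BAD, inside GPR137. These 3 peaks and the site 7.68 kb from the start can therefore not be told apart from peaks of GPR137. The centres of the strongest pair lay inside BAD and not inside GPR137. Its distance from GPR137 was not measured, so this pair cannot be assigned to BAD either. The more distant peaks were nearest to PLCB3 or CATSPERZ.

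The 3 anti-apoptotic genes resembled each other at the start. RUNX2 start peaks ranked at 46.3% (BCL2), 48.1% (BCL2L1) and 50.01% (MCL1), and MTA1 start peaks at 76.2%, 83.8% and 81.6% in the same order. In each gene the strongest start peaks of the lists overlapped, and in each MTA1 ranked higher, by 29.8, 35.7 and 31.6 percentage points. These were the widest gaps in favour of MTA1 among the members.

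At BCL2, the founding member of the family, the start pair (RUNX2, chr18:63320180-63320281, MTA1, chr18:63320143-63320321) was centred 0.461 and 0.463 kb upstream of the listed start, outside the promoter window shown above. A second, weaker RUNX2 peak lay 0.682 kb upstream (rank 20.8%). The body of this long gene held 5 RUNX2 peaks and 1 MTA1 peak, which formed a pair 81.6 kb inside with ranks of 80.2% and 70.3%. In total BCL2 had 7 RUNX2 and 3 MTA1 peaks over 237 kb.

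BCL2L1 had the most peaks, 15 RUNX2 and 13 MTA1, of which 10 in each list overlapped. Its strongest pair (RUNX2, chr20:31696160-31696576, score 26.03, rank 91.9%, and MTA1, chr20:31696135-31696625, score 30.2, rank 95.3%) lay 26.5 kb inside the gene. At the start region a RUNX2 peak (chr20:31722933-31723049, rank 40.9%) covered 117 bases of the downstream promoter window, and an MTA1 peak (chr20:31723576-31724033, rank 83.8%) covered 120 bases of the upstream window. The RUNX2 peak that overlapped the latter (chr20:31723595-31723777) lay between the windows.

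MCL1, a short-lived inhibitor, had 4 peaks in each list and every peak overlapped its counterpart. The pair at the end of the gene with the higher coordinate, RUNX2 at chr1:150579490-150579789 (score 6.71) and MTA1 at chr1:150579465-150579941 (score 15.9), was counted as the start pair, since a peak at either end was accepted for genes with no listed start. The highest ranks were in a pair nearest to ADAMTSL4, at 89.4% for RUNX2 and 95.6% for MTA1.

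Set side by side, the start peaks of the members ranked below the usual level of start peaks in the RUNX2 list and near it in the MTA1 list. The median start rank was 51.1% (range 45.9 to 78.4, n = 9 genes) for RUNX2, where the median over all 9982 protein-coding genes with a start peak was 71.5%, and 79.7% (range 10.49 to 86.7, n = 10 genes) for MTA1, where it was 75.4% over 10257 genes. None of the 9 RUNX2 start peaks and none of the 10 MTA1 start peaks was in the top 10% of its list, against 17.3% and 26.8% of all genes with such a peak. MTA1 had the higher rank at 8 of the 9 members with both, BID being the exception, against 62.6% of the 8873 genes with both. The median difference was 16.8 percentage points at the members (range -67.9 to 35.7) and 4.11 at all genes (quartiles -6.26 and 14.8). BAD is among the 8 only through its separate MTA1 peak. This comparison was chosen after the ranks were seen.

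**Figure D3:**
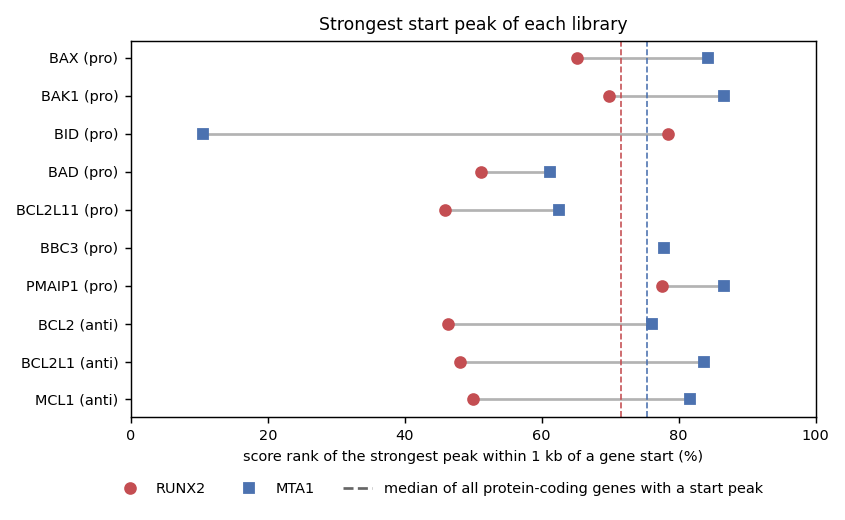
For each gene the circle gives the score rank (%) of the strongest RUNX2 peak within 1 kb of a start, the square that of the strongest MTA1 peak, and the dashed lines the medians over all protein-coding genes with such a peak (71.5% and 75.4%); pro and anti name the role in apoptosis. MTA1 stood to the right at 8 genes, BID was reversed, and BBC3 had no RUNX2 start peak.

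Away from the members' own starts the order of the ranks was mixed. Of the 37 overlapping pairs there MTA1 ranked higher in 17 and RUNX2 in 20. Across the lists MTA1 ranked higher in 34.7% of 19616 pairs away from every gene start. The member pairs may include some at the start of a neighbouring gene, so these shares are not like for like. At starts MTA1 ranked higher in 7 of 8 pairs at the members and in 60.5% of 8824 pairs across the lists.

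Counted from 1 shared base, overlap between the lists was more frequent at the members than in the lists as a whole, which for MTA1 was within counting error. RUNX2 peaks at the members overlapped an MTA1 peak in 43 of 69 cases (62.3%, exact Clopper-Pearson 95% interval 49.8 to 73.7), against 45.4% of the RUNX2 list. MTA1 peaks at the members overlapped a RUNX2 peak in 45 of 58 cases (77.6%, 64.7 to 87.5), against 65.5% of the MTA1 list, a value inside the interval. These intervals cover counting error only, and peaks that lie close together are not independent. At starts 8 of 11 RUNX2 and 8 of 12 MTA1 peaks overlapped, against 75.9% and 76.2% of start peaks in the lists. Away from the member's own start, the RUNX2 share was 35 of 58 (60.3%, 46.6 to 73.0) and the MTA1 share 37 of 46 (80.4%, 66.1 to 90.6). Peaks of the lists away from every gene start overlapped in 38.5% (RUNX2) and 61.7% (MTA1) of cases. These classes are unlike, since member peaks at the start of a neighbouring gene were kept. The shares therefore cannot place the difference away from gene starts. Overlap went with rank: the 43 overlapping RUNX2 peaks had a median rank of 70.9% and the 26 others of 40.5%, and the medians for MTA1 were 75.9% (45 peaks) and 44.1% (13 peaks). When the shared stretch had to cover 50% of each peak, the shares were 44.9% (32.9 to 57.4) for RUNX2 and 53.5% (39.9 to 66.7) for MTA1, and those of the whole lists, 34.9% and 50.5%, lay inside both intervals.

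Peaks were denser at the members than at most genes. The members' median was 9.84 RUNX2 and 9.24 MTA1 peaks per 100 kb of window, against 3.57 and 2.48 over all protein-coding genes. Their windows were shorter (median 53.5 kb against 64.1 kb), and the effect of window length on density was not tested. BCL2L1 had the highest RUNX2 density (15.1 per 100 kb), above that of 98.7% of protein-coding genes, and BAD the highest MTA1 density (16.4), above that of 99.4%. BAK1 exceeded 98.4% and 97.5% of genes for RUNX2 and MTA1. BCL2L11 was closer to the middle, with 6.86 and 3.43 peaks per 100 kb, and BCL2 was below the median of all genes in both lists, with 2.96 and 1.27. Neighbours share these windows, and another protein-coding gene was nearest to 17 of the 69 RUNX2 and 16 of the 58 MTA1 peaks.

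**Figure D4:**
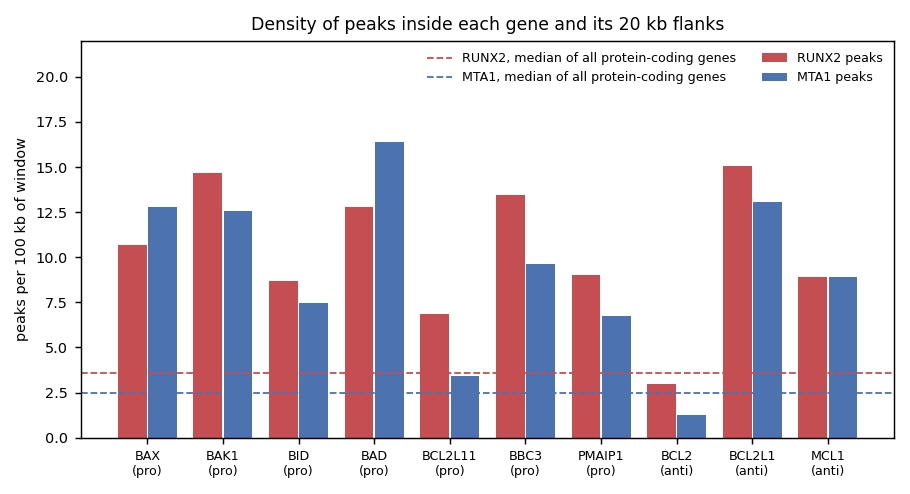
The bars give the number of RUNX2 and MTA1 peaks per 100 kb of each gene and its 20 kb flanks, and the dashed lines the medians over all protein-coding genes (3.57 and 2.48); there is 1 library per antibody and no error bar. BCL2 was the member below both lines, and BCL2L1, BAK1 and BAD were among the densest.

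Pro- and anti-apoptotic members differed in the gap between their start ranks, while their density, strongest ranks and overlap shares did not separate them. MTA1 ranked above RUNX2 by 29.8 to 35.7 percentage points at the 3 anti-apoptotic starts. The difference ran from -67.9 to 19.1 at the 6 pro-apoptotic starts with both peaks, so the groups did not overlap among these members. A gap at least as wide as that of BCL2 was found at 9.38% of the 8873 genes with both, and at 2 of 16 other apoptosis genes with both. Other genes of the family were not sorted by role, so the split is known for these members only. This contrast was made after the ranks were seen and rests on 3 genes in 1 library per antibody. Pooled over their windows, the 7 pro-apoptotic genes had 10.4 RUNX2 and 9.18 MTA1 peaks per 100 kb and the 3 anti-apoptotic genes 6.82 and 5.25. This order rested on BCL2, whose window makes up most of the anti-apoptotic length: without it BCL2L1 and MCL1 together had 13.1 and 11.8 peaks per 100 kb, above the pro-apoptotic genes. The median rank of the strongest peak in the window was 90.9% (pro) and 89.4% (anti) for RUNX2, and 89.8% and 95.3% for MTA1, with ranges that overlapped in both lists. Over all protein-coding genes with a peak it was 81.5% and 82.7%. The order of the groups turned with the setting. For MTA1 it was 86.7% (pro) and 81.6% (anti) when only peaks nearest to the member counted. For RUNX2 it was 77.5% and 80.2% within the gene body alone. Among pro- and anti-apoptotic genes, 27 of 43 (62.8%, 46.7 to 77.0) and 16 of 26 (61.5%, 40.6 to 79.8) RUNX2 peaks overlapped, and 29 of 38 (76.3%, 59.8 to 88.6) and 16 of 20 (80.0%, 56.3 to 94.3) MTA1 peaks. RUNX2 start ranks of the anti-apoptotic genes, 46.3 to 50.01%, lay within the pro-apoptotic range of 45.9 to 78.4%, as did the MTA1 start ranks.

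The highest scores were away from the members' own starts. Across the members 8 RUNX2 and 7 MTA1 peaks were in the top 10% of their lists, or 11.6% and 12.1% of the members' peaks, close to the share that defines this class. None of them was at the start of its member, while 2 in each list were nearest to another gene. Whether these lay at the start of a neighbour was not tested. Pro-apoptotic genes held 7 of these 8 RUNX2 peaks and 43 of all 69, and 5 of these 7 MTA1 peaks and 38 of all 58. The BAD window, whose peaks could not be assigned to BAD, held RUNX2 peaks ranking at 98.5%, 97.96%, 96.1% and 93.6% and MTA1 peaks at 99.0% and 95.7%. The remaining pro-apoptotic ones were at BAK1, BID and BBC3 for RUNX2. For MTA1 they were at BAK1 and, nearest to GYS1, in the BAX window. The RUNX2 count thus rested largely on the BAD window. By position, 11 RUNX2 peaks were at the start of a member, 26 elsewhere inside it and 32 in its flanks, and the numbers for MTA1 were 12, 18 and 28. Inside the genes 17 of 18 MTA1 peaks (94.4%, 72.7 to 99.9) overlapped a RUNX2 peak, and the exception lay in BCL2L1. Over all protein-coding genes 61.5% of 16658 MTA1 peaks inside a gene did, but that count left out peaks at the start of any gene. At the members only peaks at the member's own start were left out.

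RUNX proteins recognise the letters TGTGGT or TGCGGT, and these were searched on both strands of the promoter windows. They were found in 3 of the 15 member windows and in 19.0% of 22199 windows of all protein-coding genes. The BAX window held TGCGGT at position 152, under both peaks. BCL2 held TGTGGT on the opposite strand at position 263, with no peak over it, and the upstream BCL2L1 window held it on the opposite strand at position 18, also outside the peak. The member promoters with a match at a base covered by RUNX2 were thus BAX alone. Member windows were rich in G and C (median 68.7%, against 62.3% of all windows), with BBC3 lowest at 48.0% and 5 CpG. The BAX window also held 4 copies of the palindrome CACGTG, the E-box bound by MYC and related factors, and 5 of the 22199 windows held that many. The E-box was noted after the sequence had been read.

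The members were set beside 23 other genes of the family and of mitochondrial apoptosis. In the window, RUNX2 peaks were found at 22 of them, MTA1 peaks at 22 and overlapping pairs at 20, and at the start 17, 17 and 15 did. Start peaks in the top 10% of the list were present at 5 of 17 of these genes for RUNX2 and 7 of 17 for MTA1, and at no member. The highest RUNX2 ranks were at BCL2L15 (99.8%), HTRA2 (98.3%) and DIABLO (97.1%), and the highest MTA1 ranks at CYCS (99.96%), BCL2L15 (99.7%) and DIABLO (99.3%). CYCS encodes cytochrome c, and DIABLO and HTRA2 encode mitochondrial proteins that antagonise the inhibitors of apoptosis. Their peaks lay at the start, unlike those of BCL2L15, for which the nearest gene was not determined. HRK, a BH3-only gene, had 2 MTA1 peaks and no RUNX2 peak, and BCL2L14 had 1 RUNX2 peak and no MTA1 peak. MTA1 ranked higher at the start of 13 of the 16 genes with both.

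The lists were checked against what is known of the cell line. CDKN2A, which is deleted in MDA-MB-231 cells, had no peak of either list in a window of 67.6 kb. Absence is a weak check: of all protein-coding genes 84.4% had a RUNX2 and 79.7% an MTA1 peak in the window, and 49.8% and 51.2% at the start. VIM, which encodes the mesenchymal protein vimentin, had start peaks ranking at 89.3% for RUNX2 and 79.9% for MTA1, and ESR1 and CDH1, the genes of the oestrogen receptor and E-cadherin, had none at the start. Elsewhere in their windows ESR1 had 10 RUNX2 and 7 MTA1 peaks, with highest ranks of 91.7% and 89.1%, and CDH1 had 7 and 3, with highest ranks of 86.7% and 36.2%, so these genes differed from VIM at the start and not in the presence of peaks.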

How the data were processed

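CUT&Tag was performed by the study in MDA-MB-231 cells, with 1 library for RUNX2 and 1 for MTA1. The labels name another supplier for both antibodies than the methods do, and describe the ligation of adaptors to end-repaired, size-selected fragments, so the reagents and the library preparation are uncertain. The submitters' processing notes name CASAVA 1.4, Bowtie 0.12.8, MACS and MACS2, without role or order, and the build hg19. The authors deposited 1 peak list per library with a score of each peak, whose scale, threshold and control are not given in the sources used here. Positions fitted GRCh38 instead: 8.79% of RUNX2 and 14.7% of MTA1 peaks covered a start listed in RefSeq GRCh38.p14, against 0.306 to 0.436% after a move of 100 kb either way. Peaks are therefore printed as listed, 1-based, and read as GRCh38.

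The 17 RUNX2 and 15 MTA1 peaks outside chromosomes 1 to 22, X and Y were left out. Ranks were taken within each list. Genes and promoters came from RefSeq tables. The start was known for 15842 of 20037 protein-coding genes, and either end was used for the others. Overlap meant at least 1 bp. With 1 library per antibody no test across samples was possible. Counts were set beside all protein-coding genes, and the members and lists were chosen with earlier results of these data known. All 10 members were named, with the 3 highest ranks per list among 23 other apoptosis genes, those without a peak of a list, and genes nearer to the centre of a named member peak (a centre inside a gene counted as distance 0). Alternatives were narrower windows, stricter scores, widths and overlaps, and peaks nearest to the member. The values without BCL2, the comparison of start ranks with its alternatives and between roles, the primer match, base composition and the E-box were added after seeing the data. Tested on simulated data, the counting found 200 of 200 planted starts. Analyses ran in Python 3.11.15 (pandas 2.3.3, numpy 2.4.6, scipy 1.17.1) with plots by matplotlib 3.10.9.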

Additional observations from a re-analysis of the deposited data

How the results depend on the processing

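Of 123 recomputed values 104 stayed within 1.5 times the value given (overlap shares within their interval), and 19 moved. Removing peaks moved counts by construction. When each list was cut to its best-scoring 10000 peaks, the members kept 13 RUNX2 and 21 MTA1 peaks, 5 members had an overlapping pair, no member had start peaks in both lists, the overlap share of MTA1 peaks was 42.9%, and the densities per 100 kb were 2.42 (pro) and 0.787 (anti) for RUNX2 and 3.38 and 1.84 for MTA1. At or above the median score 43 RUNX2 peaks were left, and the densities of the anti-apoptotic genes were 3.67 (RUNX2) and 3.41 (MTA1). Members with a start peak went from 9 to 6 for RUNX2, at the limit of 1.5 times, and from 10 to 9 for MTA1. The share of all genes at this score is not given. MTA1 ranked higher at 5 of the 5 members with both start peaks. The gap between roles cannot be compared there for BCL2 and BCL2L1, whose RUNX2 start peaks fall below the median score. Within the gene body alone there were 35 RUNX2 and 28 MTA1 peaks, and with flanks of 5 kb 38 MTA1 peaks. When the overlap had to cover 50% of each peak, the shares were 44.9% (RUNX2) and 53.5% (MTA1). Without BCL2 the densities of the anti-apoptotic genes were 13.1 and 11.8. Depth is unknown, so weak peaks may be missing from either list.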
